A study of Schizosaccharomyces pombe with 12 samples.

Results

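The transcriptional response of haploid and diploid fission yeast to methyl methanesulfonate (MMS) was measured as a single common effect over 6 MMS libraries set against 6 untreated (NT) libraries, with the culture as a block. All 12 of the 12 samples of the series entered it, chosen by their labels alone. The groups were diploid MMS, diploid NT, haploid MMS and haploid NT, with 3 libraries each. Polyadenylated RNA was sequenced from cells in rich YES medium at 32 °C, where each mid-log culture was divided and one portion received 0.0075% MMS for 4 h. The haploid was h- smt-0 with the alleles *his3D-1*, *ura4-D18*, *leu1-32* and *ade6-M210*. The diploid was h-/h- smt-0, homozygous for *his3D-1*, *ura4-D18* and *leu1-32* and carrying *ade6-M210/ade6-M216*, and was made by protoplast fusion of haploids of the same mating type. Each ploidy is thus represented by a single genotype that cannot switch mating type, and RNA came from the same number of cells in every sample.

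MMS methylates DNA bases, and replication forks that meet the damaged template slow or stall. In fission yeast the S-phase checkpoint keeps the MBF transcription factor active at such forks, so that genes for origin licensing, nucleotide supply and repair stay on. Alkylating agents also react with thiols, and some genes of thiol and peroxide defence are controlled by the stress regulators Pap1 and Sty1-Atf1. A cell held before mitosis does not reach cell separation, when secreted glucanases dissolve the septum.

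The libraries held 18079041 to 26493886 counts with MMS and 16288362 to 19117356 counts in NT. Of the deleted markers, *ura4+* had 0 counts in every library and *his3+* had 1 to 10. The 8 M-cell markers in the table, which h- cells express, were counted in every library and summed to 389 to 454 CPM (counts relative to library size after TMM) with MMS and 455 to 517 CPM in NT. The 4 P-cell markers in the table summed to 1538 to 1741 CPM with MMS and 1650 to 1839 CPM in NT. Of that sum *sxa1+* alone gave 1163 to 1619 CPM with MMS and 1385 to 1636 CPM in NT, and the highest value among *map2+*, *map3+* and *map4+* was 303 CPM with MMS and 193 CPM in NT. *map2+* shares 962 bases with *ura6+*, and *map3+* shares 1494 bases with *his6+*. The strand setting of the counting is not given, so their reads cannot be told apart from those of these neighbours. The *mat1-P* genes, which define P cells, were not analysed here. Cultures did not respond alike, and diploid culture 3 stood apart. Across genes, its log2 ratio of MMS to NT had a correlation of 0.27 with the mean of the other 5 cultures, against 0.63 to 0.81 for each of the others, and counts that moved by more than 1.5 times without it, or without another culture, are given with and without that culture.

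With MMS, 15 of 16 targets of the S-phase factor MBF, 17 of 21 genes of peroxide defence and 30 of 39 proteasome genes rose at an adjusted p under 0.05 by edgeR, where 16.5% of all genes tested rose. By the same rule 9 of 29 genes of cell separation, 11 of 29 of mating and 7 of 20 for sugar and amino acid transport fell, where 12.8% of all genes tested fell. Without culture as a block, 12 of the 16, 12 of the 21 and 24 of the 39 rose, where 370 of all genes tested rose. In that fit 9 genes of cell separation, 6 of mating and 3 of sugar and amino acid transport fell, where 231 of all genes tested fell. Of 4584 genes tested, 82 rose and 70 fell by edgeR's quasi-likelihood test with a log2FC of more than 0.58 in size (about 1.5-fold) and an adjusted p below 0.05. These are 1.79% and 1.53% of the genes tested. The median log2FC was 0.80 among the genes that rose and -0.71 among those that fell. Of the 82, 77 had more CPM with MMS in each of the 6 cultures, and 58 of the 70 had less in each. Over all genes tested, 15% were above NT in every culture and 12.2% below it. For 35 of the 82 and 17 of the 70, the MMS and NT libraries did not overlap at all, against 2.36% and 1.59% of all genes tested. Without diploid culture 3, 97 genes rose and 113 fell.

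**Figure D1:**
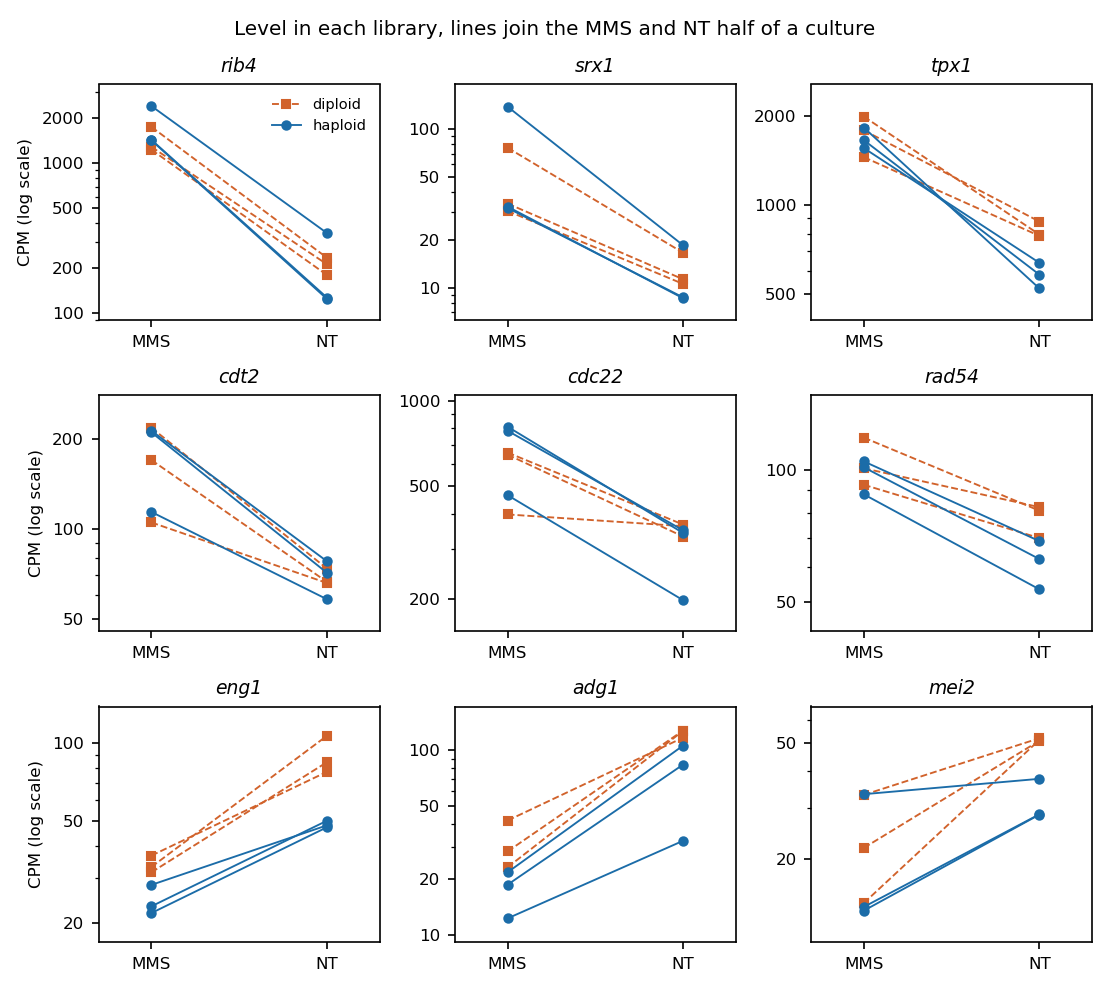
Level of 9 named genes in CPM (log axis) in the 6 MMS libraries on the left and the 6 NT libraries on the right of each panel. Circles and solid lines are haploid cultures, squares and dashed lines are diploid cultures, and a line joins the portions of a culture. The lines of *rib4+*, *srx1+*, *tpx1+*, *cdt2+*, *cdc22+* and *rad54+* run above NT and those of *eng1+*, *adg1+* and *mei2+* below it in every culture.

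Promoters of 3 S-phase genes that rose are shown for the motif they carry. The stretches are the 160 bases before the annotated start, 5′ to 3′ on the strand of the gene, from the RefSeq genome of build ASM294v3. Capitals mark ACGCGT, the MluI cell cycle box known as the motif of MBF, before *cdt2+* (I:2035705-2035864, minus strand), *cdc22+* (I:4226798-4226957, plus strand) and *tos4+* (I:1922383-1922542, plus strand).
cdt2: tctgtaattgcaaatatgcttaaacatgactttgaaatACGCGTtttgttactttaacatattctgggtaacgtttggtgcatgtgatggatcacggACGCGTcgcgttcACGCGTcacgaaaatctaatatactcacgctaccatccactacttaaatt
cdc22: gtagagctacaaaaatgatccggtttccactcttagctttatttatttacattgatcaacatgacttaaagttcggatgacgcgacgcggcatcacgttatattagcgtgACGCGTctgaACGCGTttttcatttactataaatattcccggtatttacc
tos4: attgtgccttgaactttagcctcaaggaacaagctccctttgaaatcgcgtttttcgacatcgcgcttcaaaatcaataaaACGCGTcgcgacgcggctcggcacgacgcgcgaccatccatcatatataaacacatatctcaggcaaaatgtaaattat
ACGCGT reads the same on both strands, and it and the motifs named next were searched on both strands in the 300 bases before the start of every gene tested. ACGCGT was found before 6 of 16 MBF targets (37.5%), among them *cdt2+*, *cdc22+*, *tos4+* and *ssb1+*, and before 2.55% of all genes tested. Among the genes called, ACGCGT stood before 7 of the 82 that rose (8.54%) and 4 of the 70 that fell (5.71%). TGACGT, the core of the site for Atf1, stood before 7 of the 82 (8.54%), 8 of the 70 (11.4%) and 4.97% of all genes tested. TTACGTAA, a site for Pap1, stood before none of the genes called and before 0.545% of all.

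The targets of MBF, the factor that turns on genes of the G1 to S transition, were the list with the largest share of members higher with MMS. Of 16 members tested, 15 rose and 0 fell at an adjusted p under 0.05 without a fold threshold, where 16.5% of all genes tested rose and 12.8% fell by that rule. These are 757 and 588 genes. With 1 culture left out in turn the counts ran between 441 and 1029 higher and between 305 and 1015 lower, smallest without diploid culture 1 and largest without diploid culture 3. The median log2FC of the targets was 0.61, beside -0.00 for all genes tested. Many of them are genes that the study names in its MMS results on these samples, so the direction of the list is not independent evidence. *cdt1+*, *cdt2+* and *cdc18+* had the largest log2FC of the list. *cdt1+*, which with Cdc18 loads the replicative helicase at origins, had 26.9 CPM as lowest, 51.7 as median and 65.0 as highest value with MMS, and 11.6, 17.7 and 26.4 CPM in NT. Every MMS library was thus above every NT library, and the log2FC was 1.34 ± 0.24 (SE, adjusted p = 0.0036 by edgeR). *cdc18+* had 41.9, 78.0 and 111 CPM with MMS and 19.6, 33.9 and 45.8 CPM in NT, with a log2FC of 1.24 ± 0.18 (adjusted p = 0.0013 by edgeR). Its groups overlapped, although MMS was above NT in each culture. *cdt2+*, the substrate receptor by which a ubiquitin ligase removes Cdt1 and the inhibitor Spd1, had 105, 191 and 219 CPM with MMS and 58.2, 69.0 and 78.0 CPM in NT, with a log2FC of 1.27 ± 0.12 (adjusted p = 0.00021 by edgeR).

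Of 4 genes for ribonucleotide reductase and its inhibitors 3 rose, and of 8 MBF subunits and regulators 3 rose, with 0 lower in either list. The first list holds inhibitors of the enzyme beside its subunits, so its count is not one of nucleotide supply alone. *cdc22+* and *tos4+*, named next, are also among the MBF targets. *cdc22+*, the large subunit of ribonucleotide reductase, had 398, 651 and 809.6 CPM with MMS and 199, 346 and 366 CPM in NT (log2FC 0.93 ± 0.13, adjusted p = 0.0013 by edgeR). The small subunit *suc22+* rose by a log2FC of 0.26 (adjusted p = 0.032 by edgeR), which became -0.00 when libraries were scaled by spike-ins. *yox1+*, a co-repressor of MBF that the checkpoint inactivates, rose by 0.71 ± 0.07 and *tos4+*, a protein with a forkhead-associated domain, by 1.02 ± 0.12, both with no overlap between MMS and NT libraries. *cdc10+*, a subunit of MBF, rose by 0.28. *nrm1+*, the co-repressor that acts with Yox1, was the MBF target that did not pass, at 67.6 to 85.4 CPM with MMS and 56.4 to 77.0 CPM in NT, and is named after its value was seen. Of the cell cycle regulators, *mik1+*, a kinase that inhibits Cdc2, rose by 0.61 ± 0.17 and the S-phase cyclin *cig2+* by 0.54 ± 0.11, each in 5 of 6 cultures. *cig2+* shares 1459 bases with the neighbouring gene *pmc1+*, and with the strand setting of the counting not given its reads cannot be told apart from those of that gene. The large subunit of replication protein A, *ssb1+*, rose by 0.38 ± 0.06 and the checkpoint mediator *mrc1+* by 0.17 ± 0.05, where *mrc1+* turned to -0.10 when scaled by spike-ins. The calls of *suc22+*, *mik1+* and *mrc1+* each needed certain cultures, and without diploid culture 1 their adjusted p was 0.080, 0.050 and 0.11 by edgeR.

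A few genes of recombination and translesion synthesis rose. Of those named here, *ctp1+* and *psm3+* are among the MBF targets counted above. Of 13 genes for post-replication repair and translesion synthesis, 5 rose and 1 fell (median 0.10). Without diploid culture 1 or 2, 2 of them rose, and without haploid culture 2 or 3, 3 rose, while 4 fell without diploid culture 3. *ctp1+*, which starts the resection of broken ends, had 149.7, 200.0 and 252 CPM with MMS and 96.5, 119 and 153 CPM in NT (log2FC 0.67 ± 0.05, adjusted p = 0.00013 by edgeR), with groups that just overlapped. *rad54+*, a DNA translocase of recombination, had 88.1, 101.4 and 119 CPM with MMS and 53.4, 69.4 and 82.4 CPM in NT (log2FC 0.55 ± 0.07, adjusted p = 0.00071 by edgeR), with no overlap. *kpa1+*, the translesion polymerase kappa, rose by 0.83 ± 0.09, with 169, 205 and 222 CPM with MMS and 88.1, 118 and 139.8 CPM in NT. The cohesin subunit *psm3+* rose by 0.54 ± 0.05. The ubiquitin enzymes *rhp6+* and *rad8+*, which modify PCNA at stalled forks, rose by 0.29 and 0.28, where *rad8+* stood at -0.01 when scaled by spike-ins and at an adjusted p of 0.075 by edgeR without diploid culture 1.

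Most DNA repair genes did not pass the test or fell. Of 30 recombination and fork repair genes, 3 rose and 6 fell, with a median log2FC of -0.07, and the helicases *srs2+* and *fbh1+*, which limit recombination, fell by 0.39 and 0.33, each in 5 of 6 cultures. The count of 6 lower was 2 and 3 without diploid cultures 1 and 2, 11 without diploid culture 3 and 3 without haploid culture 2. It was 0 without culture as a block. *srs2+* shares 2138 bases with a neighbouring gene, SPAC4H3.16, and did not pass without diploid culture 1 (adjusted p = 0.065 by edgeR). Of 13 genes for base excision and alkyl base repair, 1 rose (7.69%) and 5 fell (38.5%), with a median of -0.20. The 5 became 2 without diploid culture 1 or any 1 of the haploid cultures, and 3 without diploid culture 2. *atl1+*, an alkyltransferase-like protein that marks alkylated guanine, had 3.84 to 9.06 CPM with MMS and 7.15 to 12.9 CPM in NT and fell by 0.57 ± 0.10 (adjusted p = 0.0029 by edgeR), and the endonuclease *uve1+* fell by 0.43 ± 0.06. The glycosylase *thp1+* was the member that rose, by 0.24, or -0.02 when scaled by spike-ins. The 3-methyladenine glycosylases, which start the repair of MMS lesions and are named after their values were seen, did not pass. *mag1+* had 40.4 to 55.0 CPM with MMS and 36.7 to 58.03 CPM in NT (log2FC 0.01 ± 0.07), and *mag2+* had 25.6 to 40.5 CPM with MMS and 23.0 to 49.5 CPM in NT (log2FC 0.01 ± 0.08). Of 16 checkpoint genes, 3 rose and 2 fell (median -0.09), which are shares near those of all genes, with the effector kinase *cds1+* higher by 0.27 and the 14-3-3 protein *rad25+* by 0.39, and the clamp subunit *hus1+* lower by 0.26 and the mediator *crb2+* by 0.20. Without diploid culture 3, 5 of the 16 rose and 5 fell, and without any 1 of the other cultures 1 to 3 rose and 0 fell. Without diploid culture 1, *cds1+*, *hus1+* and *crb2+* had an adjusted p of 0.051, 0.067 and 0.055 by edgeR.

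**Figure D2:**
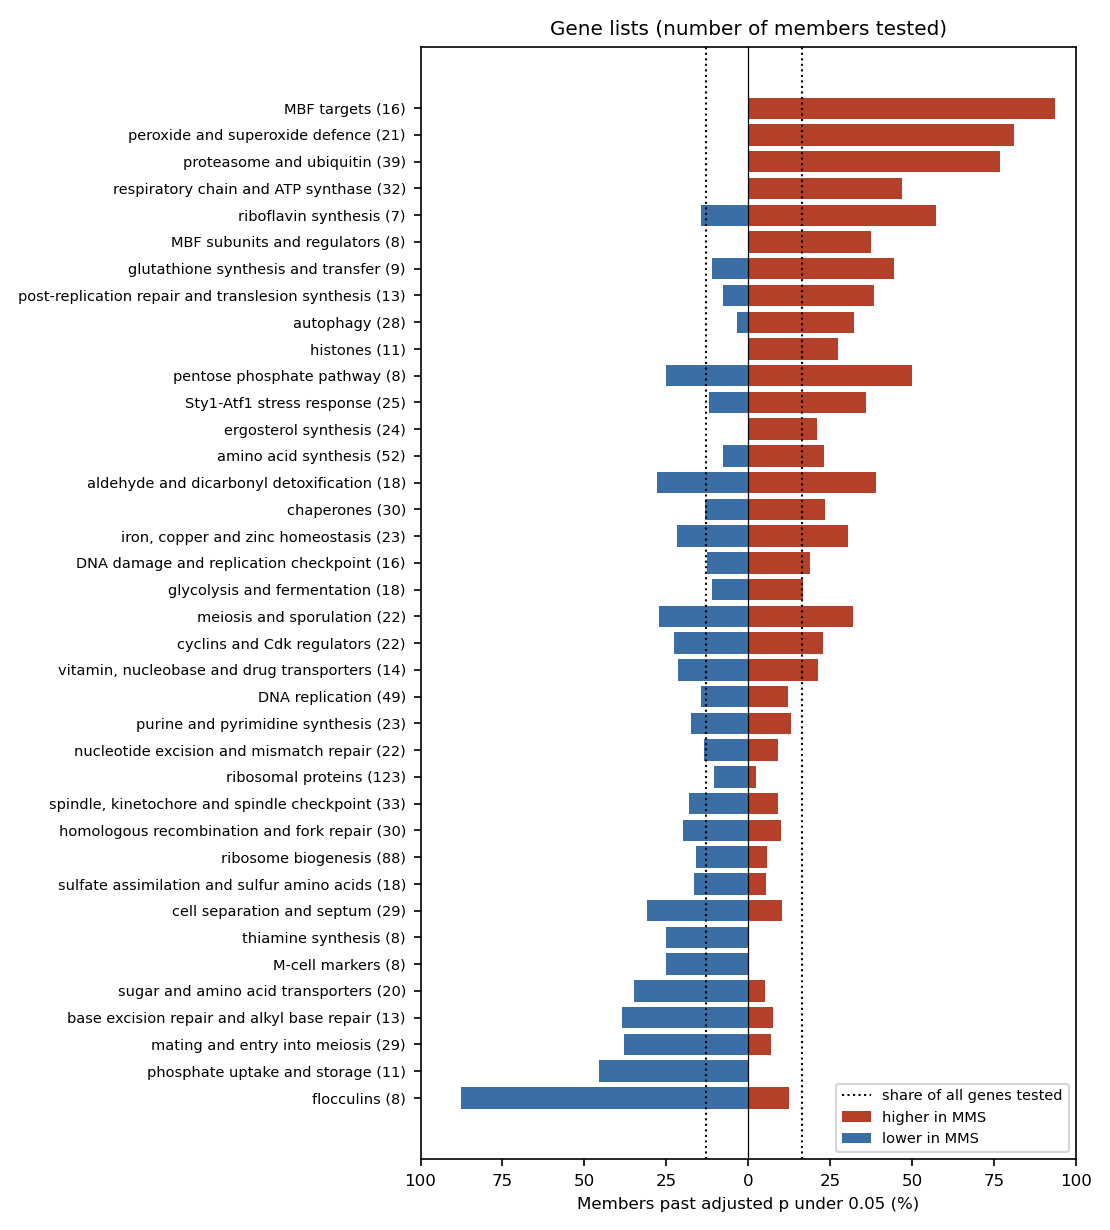
Share of the tested members of each gene list drawn that passed an adjusted p under 0.05, in percent. Members higher with MMS are to the right in red and members lower with MMS to the left in blue. The lists of ribonucleotide reductase and its inhibitors and of P-cell markers, with 4 members tested each, are not drawn. The number tested is in parentheses and dotted lines mark the 16.5% and 12.8% of all genes tested. MBF targets, peroxide defence and the proteasome reach furthest to the right, and the 8 flocculins furthest to the left.

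The thiol and peroxide defence rose as a group. Of 21 members tested, 17 rose and 0 fell (median log2FC 0.40), and all 17 were higher with MMS in every culture. *srx1+*, the sulfiredoxin that restores overoxidised peroxiredoxin, had 30.5, 33.2 and 138 CPM with MMS and 8.59, 10.9 and 18.5 CPM in NT (log2FC 2.03 ± 0.17, adjusted p = 0.00016 by edgeR). Its substrate *tpx1+*, the main peroxiredoxin, had 1451, 1722 and 1991 CPM with MMS and 522, 712 and 879 CPM in NT (log2FC 1.31 ± 0.11, adjusted p = 0.00016 by edgeR). For both genes every MMS library exceeded every NT library. The thioredoxin system that feeds Tpx1 moved with it, as *trr1+*, thioredoxin reductase, rose by 1.25 ± 0.16 and *trx1+*, the cytosolic thioredoxin, by 0.62 ± 0.09. The catalase *ctt1+* had 279, 363 and 960.3 CPM with MMS and 119, 155 and 194 CPM in NT (log2FC 1.37 ± 0.19), where the highest value belongs to haploid MMS 1. The glutaredoxin *grx1+* rose by 1.07 ± 0.09, the glutathione peroxidase *gpx1+* by 0.56 ± 0.06 and the mitochondrial superoxide dismutase *sod2+* by 0.54 ± 0.08. *yhb1+*, which removes nitric oxide, had 1490 to 2398 CPM with MMS and 787 to 2188 CPM in NT and did not pass (adjusted p = 0.070 by edgeR), though it did without diploid culture 1 (0.040) or 3 (0.044) and by DESeq2 (0.016).

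Enzymes that make NADPH and remove aldehydes changed in part. In the pentose phosphate pathway, whose first steps reduce NADP, 4 of 8 rose and 2 fell, or 1 without haploid culture 2 or 3. *zwf1+*, glucose-6-phosphate dehydrogenase, had 887, 1381 and 1544 CPM with MMS and 605, 664 and 738 CPM in NT (log2FC 0.95 ± 0.11, adjusted p = 0.00054 by edgeR), *tal1+* rose by 0.51 and *pgl1+* by 0.38, and the isomerase *rki1+* fell by 0.28. Of 18 genes for aldehydes and dicarbonyls, 7 rose and 5 fell, and the number lower was 1 without diploid culture 1 or 2 or haploid culture 2 or 3. *hsp3104+*, annotated as a glyoxalase III, had 65.3, 97.7 and 172 CPM with MMS and 18.7, 24.0 and 41.9 CPM in NT (log2FC 1.96 ± 0.24, adjusted p = 0.00068 by edgeR). *fmd1+*, the glutathione-dependent formaldehyde dehydrogenase, rose by 0.80 ± 0.10, the aldose reductase *yak3+* by 0.95 ± 0.08 and the quinone reductase *zta1+* by 0.55 ± 0.07. Further oxidoreductases were among the largest changes, with the aldo-keto reductase SPBC215.11c at 1.38 ± 0.25, the short-chain dehydrogenase SPCC663.08c at 1.38 ± 0.25 and the nearby dehydrogenase *osr1+* at 1.19 ± 0.25. Of 9 glutathione genes, 4 rose and 1 fell, and the transferases diverged, as *gst2+* rose by 0.59 ± 0.16 and *gst1+* fell by 0.61 ± 0.11. Without haploid culture 2, *gst2+* had an adjusted p of 0.068 by edgeR and 1 glutathione gene rose, and 2 rose without diploid culture 1 or haploid culture 3. The 1 that fell became 2 without diploid culture 3.

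The largest change of all genes called was in riboflavin synthesis. *rib4+* (II:1165419-1166729, plus strand), the lumazine synthase that makes the direct precursor of riboflavin, had 1235, 1432 and 2415 CPM with MMS and 124, 196 and 343 CPM in NT. Its lowest MMS library lay above its highest NT library, and the log2FC was 3.02 ± 0.13, a change of 8.10-fold (adjusted p = 5.5e-06 by edgeR). *rib4+* shares 210 bases with *mrps17+*, which had a log2FC of 0.56 (adjusted p = 0.072 by edgeR). The other steps changed less. Of 7 pathway genes 4 rose and 1 fell, with *rib3+*, which makes the other substrate of Rib4, higher by 0.53 ± 0.08 and riboflavin synthase *rib5+* higher by 0.44 ± 0.10. *rib7+*, which acts earlier on the pyrimidine branch, fell to 15.3, 17.3 and 25.2 CPM with MMS, against 28.4, 31.0 and 32.5 CPM in NT (log2FC -0.76 ± 0.10, adjusted p = 0.00085 by edgeR), with no overlap. *hem1+*, the first enzyme of heme synthesis, was among the 5 largest gains in CPM, at 1194, 1896 and 2198 CPM with MMS and 789, 893 and 989 CPM in NT (log2FC 0.97 ± 0.13).

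Genes of the proteasome, which degrades ubiquitinated proteins, changed little in size but mostly in the same direction. Of 39 genes for the proteasome and ubiquitin, 30 rose and 0 fell, and the median log2FC was 0.30. Of the 30, 25 were higher with MMS in every culture. Scaled by spike-ins, 0 of the 39 passed. The largest value was 0.44 ± 0.07, in the core subunit *pre1+*, with 197, 245 and 268 CPM with MMS and 164, 173 and 196 CPM in NT. *pts1+*, *pre4+* and *pre3+*, also of the core particle, rose by 0.41, 0.37 and 0.32. None of the 39 passed the threshold on log2FC. The respiratory chain and ATP synthase had 15 of 32 genes higher and 0 lower (median 0.24), led by *atp7+* at 0.59 ± 0.07 and the cytochrome oxidase subunit *cox13+* at 0.46 ± 0.07. In diploid culture 3, 11 of those 32 genes were above NT, against 28 to 31 in each of the other cultures. The 15 higher became 26 without diploid culture 3, 9 without diploid culture 1 or haploid culture 2, and 8 without diploid culture 2 or haploid culture 3. Of 30 chaperone genes, 7 rose (23.3%) and 4 fell (13.3%), near the 16.5% and 12.8% of all genes tested. Among them were *hsp9+* at 0.93 ± 0.13 and the Hsp70 *ssa1+* at -0.42 ± 0.07. The 7 higher became 4 without diploid culture 2 or haploid culture 2 and 3 without haploid culture 3. Of 123 ribosomal protein genes 3 rose (2.44%) and 13 fell (10.6%), both below the shares of all genes, with a median of -0.12. The 13 lower became 3 and 5 without diploid cultures 1 and 2 and 4 without haploid culture 2.

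The largest fall of all genes called was in cell separation. Of 29 genes tested, 9 fell and 3 rose, with a median of -0.17. With 1 culture left out in turn 9 to 13 fell, and 1 rose without diploid culture 2. *adg1+*, a gene of this list without a further annotation, had 12.3, 22.5 and 41.6 CPM with MMS and 32.3, 111 and 128 CPM in NT, with a log2FC of -2.01 ± 0.14 (adjusted p = 0.00010 by edgeR). The groups overlapped because haploid NT 1, at 32.3 CPM, was low, while MMS was below NT in each culture. *eng1+*, the endoglucanase that dissolves the primary septum, had 21.9, 29.9 and 36.6 CPM with MMS and 47.1, 63.6 and 106 CPM in NT (log2FC -1.20 ± 0.11, adjusted p = 0.00020 by edgeR). *agn1+*, the glucanase that opens the surrounding wall, had 83.9, 93.6 and 116 CPM with MMS and 144, 148 and 172 CPM in NT (log2FC -0.67 ± 0.06), and *adg2+* fell by 0.81 ± 0.08. For *eng1+*, *agn1+* and *adg2+* no MMS library reached the lowest NT library. Other cell cycle genes moved both ways, where 16.5% of all genes tested rose and 12.8% fell. Of 22 cyclins and Cdk regulators, 5 rose (22.7%) and 5 fell (22.7%). Among them *cdc2+*, the cell cycle kinase itself, was higher by 0.43 ± 0.05. The cyclins *puc1+* and *pas1+* were lower by 0.45 ± 0.07 and 0.35 ± 0.05. The 5 higher became 3 without diploid culture 1 or 2 or haploid culture 1 or 3. Of 33 spindle and kinetochore genes 3 rose (9.09%) and 6 fell (18.2%). Among them were the spindle pole protein *cut12+*, higher by 0.78 ± 0.08, and the centromere protein *cnp3+*, lower by 0.43 ± 0.05. Without diploid culture 3, 5 of the 33 rose and 9 fell.

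**Figure D3:**
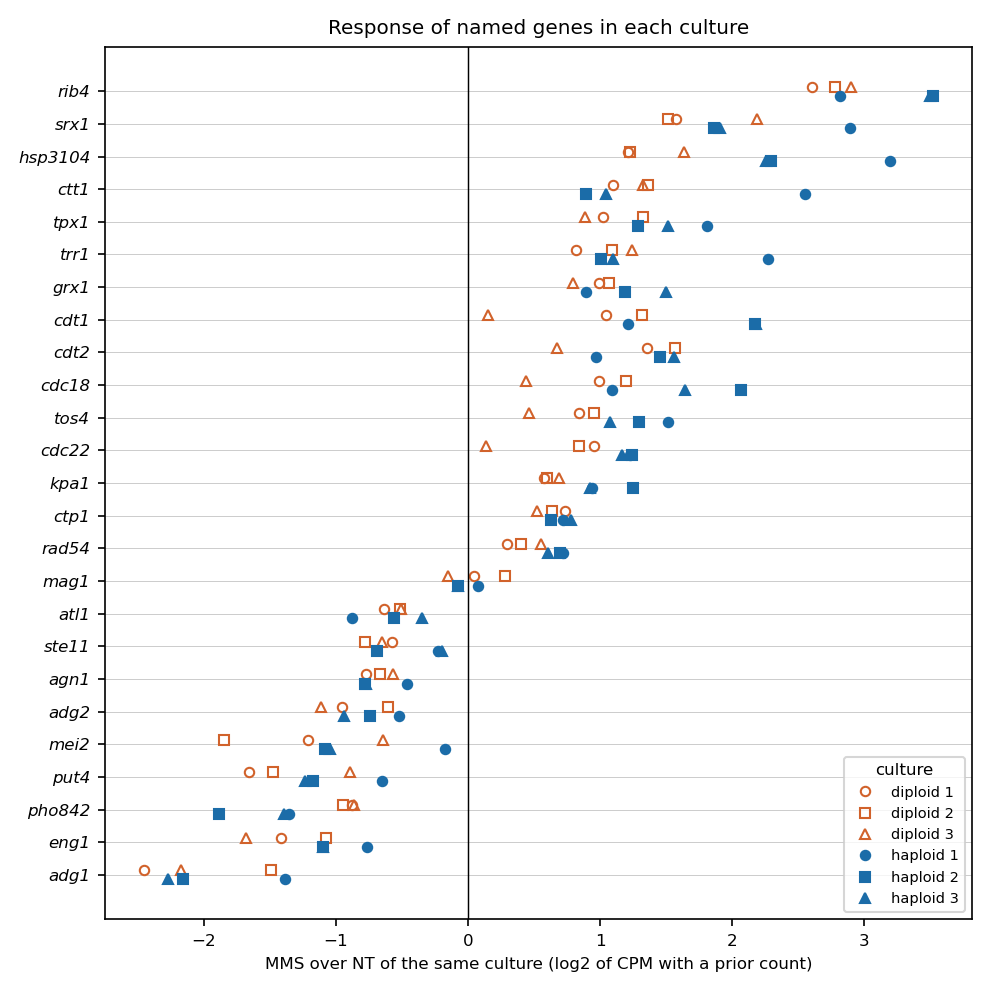
Log2 ratio of MMS to NT within each culture (x axis, log2 of CPM with a prior count of 2) for 25 genes. Open orange symbols are diploid cultures, filled blue symbols haploid cultures, and the shape gives the culture number. Diploid culture 3 lies nearest 0 for *cdt1+*, *cdt2+*, *cdc18+*, *tos4+* and *cdc22+*, and *mag1+* straddles 0.

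Among genes of sexual differentiation, those of mating mostly fell where they changed, while those of meiosis and sporulation moved both ways. Of 29 genes for mating and entry into meiosis, 11 fell and 2 rose (median -0.23). The 11 lower became 6 without diploid culture 1 or 2, 7 without haploid culture 3 and 18 without diploid culture 3, and the 2 higher became 1 without diploid culture 1 or 2 or haploid culture 1 or 3. *mei2+*, the RNA-binding protein that starts meiosis, had 13.3, 18.0 and 33.4 CPM with MMS and 28.4, 44.3 and 51.9 CPM in NT (log2FC -0.99 ± 0.18, adjusted p = 0.0037 by edgeR), lower in each culture with groups that overlapped. *ste11+*, the transcription factor that drives this programme, fell by 0.52 ± 0.08, *ste7+* by 0.47 ± 0.06, and *mam1+*, the exporter of the M-factor pheromone, by 0.44 ± 0.05 with no overlap. *ste6+*, a Ras exchange factor, rose by 0.30 ± 0.05. Of 22 genes for meiosis and sporulation, 7 rose and 6 fell (median 0.06), where 4 rose without diploid culture 1. Meiotic recombination genes diverged, as *rec6+* rose by 0.61 ± 0.07 and the meiotic recombinase *dmc1+* fell by 0.41 ± 0.06. Diploid culture 3 went against the mating list, with a median log2 ratio of 0.09 over its genes, against -0.32 to -0.12 in the other cultures. Most markers of the cell types did not pass, as 2 of 8 M-cell markers and 1 of 4 P-cell markers fell and 0 rose. The other 6 M-cell and 3 P-cell markers passed in neither direction, where 12.8% of all genes tested fell. *mam1+* is counted both among the mating genes and among the M-cell markers that fell. The part of the markers in the fall of the mating list was not tested. Without diploid culture 3, 5 of 8 M-cell and 3 of 4 P-cell markers fell, and without diploid culture 1 or 2, 1 M-cell marker fell.

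Among transporters, 7 of 20 for sugars and amino acids fell (35.0%) and 1 rose. Without diploid culture 1 or 2 or haploid culture 2 or 3, 0 rose. Of 14 for vitamins, nucleobases and drugs, 3 rose (21.4%) and 3 fell (21.4%, median 0.01). Of those 14, 1 rose without diploid culture 2, 5 rose without diploid culture 3, and 1 fell without haploid culture 1 or 2. The proline permease *put4+* had 28.1, 47.0 and 63.1 CPM with MMS and 44.2, 111 and 176 CPM in NT (log2FC -1.19 ± 0.12, adjusted p = 0.00027 by edgeR), and the permease *isp5+* fell by 0.80 ± 0.10 and the peptide transporter *ptr2+* by 0.64 ± 0.13. SPAC1039.01, annotated as an amino acid permease, and its neighbour SPAC1039.02 fell by 1.37 ± 0.15 and 1.24 ± 0.19. The phosphate transporter *pho842+* had 118, 129 and 183 CPM with MMS and 227, 339.7 and 435 CPM in NT (log2FC -1.22 ± 0.13, adjusted p = 0.00035 by edgeR), with no overlap, and 5 of 11 phosphate genes fell and 0 rose. The 5 became 2 without diploid culture 1 or 2 or haploid culture 3 and 3 without haploid culture 2, and in diploid culture 3 the median log2 ratio of the 11 genes was 0.10, against -0.34 to -0.06 in the others. Metal genes moved both ways, with 7 of 23 for iron, copper and zinc higher, or 3 without diploid culture 1 or 2 or haploid culture 2 or 3, and 5 lower (median -0.01), among them the metallothionein *zym1+* higher by 1.08 ± 0.15 and the zinc transporter *zrt1+* lower by 0.76 ± 0.08. Of 8 flocculins, the cell surface adhesins, 7 fell and 1 rose, and 4 fell without diploid culture 1 or 2 or haploid culture 2. *gsf2+* fell by 0.38 ± 0.06, while *pfl8+* rose by 0.49 ± 0.11. The largest losses in CPM were in *urg1+* and *urg2+*, neighbouring genes known to respond to uracil. *urg1+* had 580.4, 2755 and 3032 CPM with MMS and 399, 4511 and 7138 CPM in NT, a spread that overlapped widely, with a log2FC of -0.85 ± 0.26 (adjusted p = 0.037 by edgeR) and MMS below NT in 5 of 6 cultures. *urg2+* fell by 1.03 ± 0.26, also in 5 of 6. Without diploid culture 1 the adjusted p was 0.11 for *urg1+* and 0.059 for *urg2+* by edgeR.

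Of the further lists, some had a larger share of members higher than the 16.5% of all genes, and others lay near the shares of all genes or below them. Of 25 genes of the Sty1-Atf1 stress response 9 rose (36.0%) and 3 fell (median 0.14). *srx1+* is counted both here and among the peroxide genes. Of 28 autophagy genes 9 rose (32.1%) and 1 fell (median 0.10), where 2 fell without diploid culture 3. Of 52 genes for amino acid synthesis 12 rose (23.1%) and 4 fell (median 0.04), where 5 rose without diploid culture 1 or 2, 6 rose without haploid culture 2 or 3, and 9 fell without diploid culture 3. Of 24 ergosterol genes 5 rose (20.8%) and 0 fell (median 0.07), where 9 rose without diploid culture 3 and 1 to 3 without any 1 of the others.

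The counts for histones, glycolysis and ribosome biogenesis moved with diploid culture 3. Of 11 histone genes 3 rose and 0 fell (median 0.24), and 9 rose without that culture, in which 3 of the 11 were above NT with a median log2 ratio of -0.42, against 0.14 to 0.70 in the others. Of 18 genes for glycolysis and fermentation 3 rose (16.7%) and 2 fell (11.1%), and 8 rose and 3 fell without diploid culture 3 and 1 rose and 1 fell without any 1 of the others. Their median of 0.04 stood between -0.18 in diploids and 0.35 in haploids. Of 88 ribosome biogenesis genes 5 rose and 14 fell (15.9%, median -0.10), and 76 of the 88 were above NT in diploid culture 3, against 9 to 33 in the others. The 14 lower became 43 without diploid culture 3, 2 without diploid culture 1 or 2, 3 without haploid culture 1 or 3 and 7 without haploid culture 2, and the 5 higher became 3 without diploid culture 1 or haploid culture 3.

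Of 49 DNA replication genes 6 rose (12.2%) and 7 fell (14.3%, median -0.03), and the 7 lower became 13 without diploid culture 3, 3 without diploid culture 1 or haploid culture 2 and 4 without diploid culture 2 or haploid culture 3, with 3 higher without diploid culture 1. Of 22 genes for nucleotide excision and mismatch repair 2 rose (9.09%) and 3 fell (13.6%, median -0.07), with 8 lower without diploid culture 3 and 0 or 1 higher without diploid cultures 1 or 2 or haploid cultures 2 or 3. Of 23 genes for purine and pyrimidine synthesis 3 rose and 4 fell (median -0.01), of 18 for sulfate assimilation and sulfur amino acids 1 rose and 3 fell (median -0.01), and of 8 for thiamine synthesis 0 rose and 2 fell (median -0.08). The 1 sulfur gene higher became 4 without diploid culture 3 and 0 without any 1 of the others, and the 2 thiamine genes lower became 1 without diploid culture 1 or any 1 of the haploid cultures.

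Genes called often lay side by side. Of the 82 that rose, 13 (15.9%) had a direct neighbour among them, where 3.42% of all genes tested had such a neighbour, and of the 70 that fell, 23 (32.9%) did, against 2.71% of all. Pairs included *yox1+* with *rec6+*, *osr1+* with SPCC663.08c and SPAC1039.01 with SPAC1039.02. Within 100 kb of a chromosome end lay 8 of the 82 (9.76%) and 13 of the 70 (18.6%), against 2.99% of all genes tested. Genes there include near-identical copies, whose reads the counting may have divided between copies, so their values are uncertain. Of the named genes, *sod2+*, *cdc10+*, *pre1+*, *rki1+*, *puc1+*, *agn1+* and *zrt1+* share between 114 and 564 bases with an overlapping gene, and the same limit of strand holds for them.

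**Figure D4:**
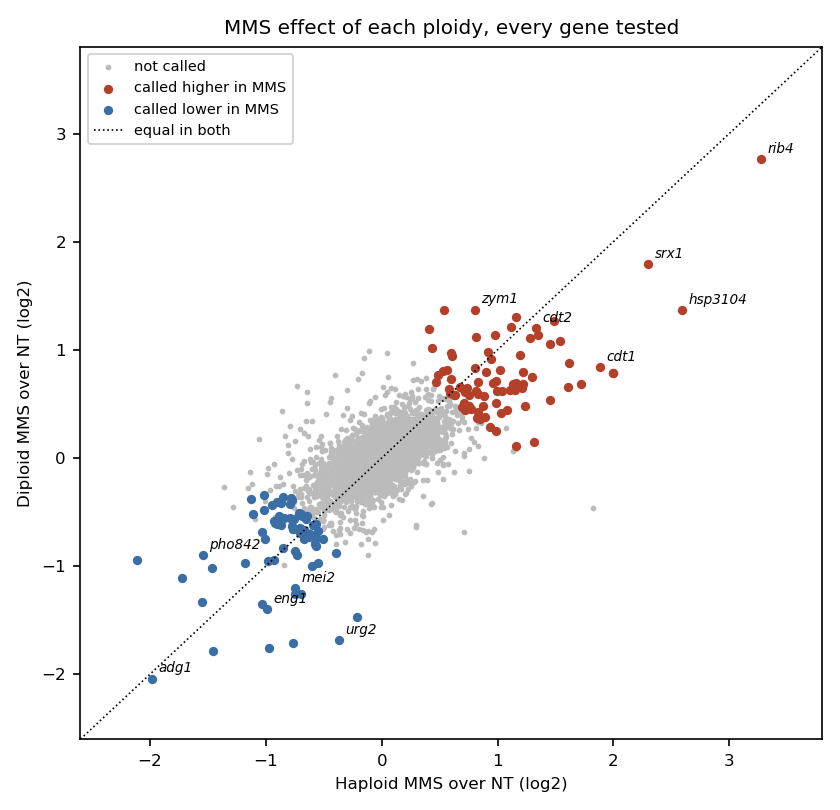
MMS effect in diploids (y axis, log2) and in haploids (x axis, log2) for each of the 4584 genes tested. Red points are the 82 genes called higher and blue points the 70 called lower in the common effect, and the dotted line marks equal effects. Most red points lie below the line, and *zym1+* lies above it.

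The common effect is an average of the ploidies, which were also fitted side by side. In diploids 69 genes rose and 59 fell past both thresholds, 1.51% and 1.29% of those tested, and in haploids 111 rose and 98 fell, 2.42% and 2.14%. Of the 82 genes of the common effect that rose, 43 were called in both ploidies, 6 in diploids alone and 30 in haploids alone. For the 70 that fell the counts were 26, 12 and 25. The diploid coefficient was the smaller for 63 of the 82, with a median of 0.69 in diploids and 0.94 in haploids. It was the smaller for 43 of the 70, with medians of -0.69 in diploids and -0.77 in haploids. That share over all genes tested is not given here, so no trait of the genes called is read from these counts. *cdt1+* had a log2FC of 0.84 in diploids and 1.89 in haploids, and *hsp3104+* of 1.36 in diploids and 2.59 in haploids, whereas *adg1+* had -2.04 in diploids and -1.98 in haploids. The difference between ploidies was tested for every gene, and 0 of 4584 (0%) passed an adjusted p under 0.05 by edgeR, where the smallest adjusted p was 0.16. At an unadjusted p under 0.05 there were 626 genes (13.7%). Without haploid culture 1, 5 genes passed, all with the smaller effect in diploids, among them SPCC663.08c, SPBC215.11c and *osr1+*, and without diploid culture 3, 1 passed. The counts within a ploidy rest on 3 cultures and moved with them. Without diploid cultures 1, 2 and 3 in turn, 20, 43 and 96 genes rose and 21, 39 and 116 fell in diploids, and leaving out 1 haploid culture gave 69 to 138 genes higher and 48 to 120 lower in haploids. Across genes the coefficients of the ploidies, which share no library, had a correlation of 0.66.

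Cultures differed in which groups they moved. The median log2 ratio of the 82 genes that rose was 0.78, 0.77 and 0.48 in diploid cultures 1, 2 and 3 and 0.77, 0.97 and 1.05 in haploid cultures 1, 2 and 3. In diploid culture 3 the MBF targets had a median of 0.36, against 0.58 to 0.80 in the others, and *cdc22+* had a log2 ratio of 0.14, against 0.84 to 1.24. *rib4+* did not show this, with a log2 ratio in diploid culture 3 of 2.90 and of 2.60 to 3.52 in the others, nor did *srx1+*, with 2.19 in diploid culture 3 and 1.52 in diploid culture 2. In haploid culture 1 *ctt1+* had a log2 ratio of 2.55, against 0.90 to 1.36 in the others, and *trr1+* of 2.27, against 0.82 to 1.25.

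**Figure D5:**
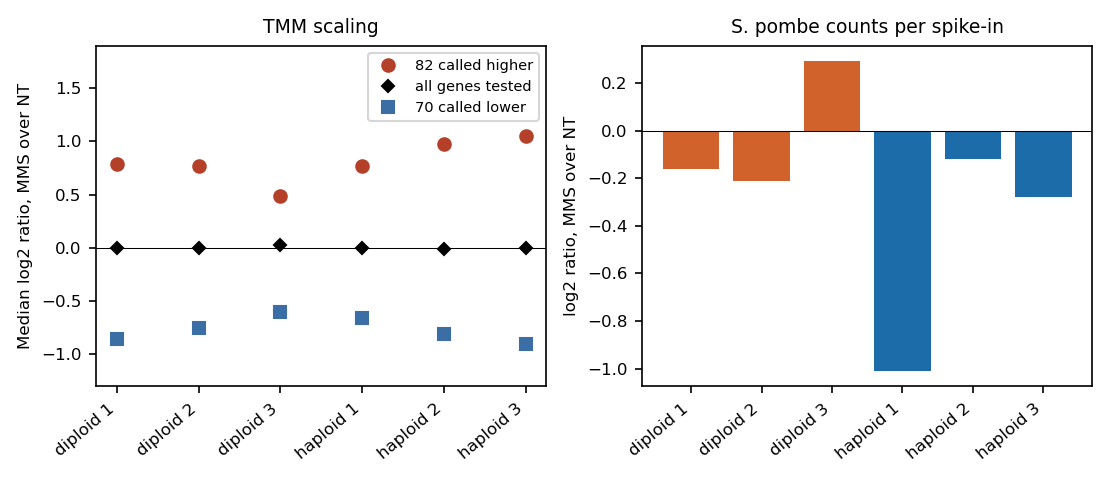
Left, the median log2 ratio of MMS to NT in each culture (TMM scaling) over the 82 genes called higher (red circles), all genes tested (black diamonds) and the 70 called lower (blue squares). Right, the log2 ratio of S. pombe counts per spike-in, with diploid cultures in orange and haploid cultures in blue, which is above 0 in diploid culture 3 alone and lowest in haploid culture 1.

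All these values are relative to the other mRNAs of a library. The ERCC spike-ins were added at equal dilution and volume to the samples of equal cell number, and the methods name them after RNA extraction. In the scale they give, fewer cells recovered, less RNA recovered in extraction and less RNA per cell cannot be told apart. The S. pombe counts per spike-in changed by a log2 ratio of -0.16, -0.21 and 0.29 in diploid cultures 1, 2 and 3 and of -1.01, -0.12 and -0.28 in haploid cultures 1, 2 and 3. They were lower with MMS in 5 of 6 cultures, with a mean of -0.25 ± 0.42 (SD, n = 6 cultures, two-sided exact sign-flip permutation test p = 0.22, where 0.031 is the smallest p possible), so no change was shown. Haploid culture 1 set much of that mean, which was -0.09 without it. In haploid NT 1 the spike-ins took 1.9% of the counts, against 3.71% and 3.40% in haploid NT 2 and 3, and the part of this in the ratio was not tested. Scaled by spike-ins, the median of all genes moved to -0.26, and 30 genes rose and 106 fell. Without haploid culture 1 it was -0.10, and 50 genes rose and 68 fell. The scaling shifts all genes of a library alike, so the medians of the lists moved with it, and stood at 0.36 for the MBF targets, 0.18 for peroxide defence, 0.04 for the proteasome and -0.41 for cell separation. In that scale 5 of 16 MBF targets, 5 of 21 peroxide genes and 0 of 39 proteasome genes rose, and 6 of 29 cell separation genes fell. Without haploid culture 1 as well, 6 MBF targets, 8 peroxide genes and 1 proteasome gene rose and 6 cell separation genes fell.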

How the data were processed

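Per the labels and the study's methods, the authors aligned reads of polyA-selected RNA with STAR 2.7.0e and assigned them with featureCounts. The deposited values are raw counts per gene and per ERCC Mix 1 spike-in, beside gene lengths, which entered no test. Sources used here give neither the build nor the strand setting. Of 4857 *S. pombe* genes, 2 near-identical ones that the methods exclude and those under 5 reads in at least 2 libraries were left out, and 4584 were tested. Counts were scaled by TMM and fitted in edgeR 4.0.16 (R 4.3.3, quasi-likelihood, Benjamini-Hochberg adjustment) with culture as block. DESeq2 1.42.0 was an alternative, and the fit was tested on simulated data. The p-values measure the spread between these cultures only.

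The methods state that each culture was divided, and the NT and MMS libraries that share a ploidy and a number were treated as portions of it. Their residuals correlated at 0.44 to 0.71, against -0.69 to 0.57 between different numbers. Residuals were taken from the mean of each group of 3 libraries, so high values for the same number lower those for different numbers. Haploid MMS 3 correlated more with haploid NT 2 (0.57) than with haploid NT 3 (0.50). Named genes were those the study names in its MMS results, the 15 largest changes each way that held in all 6 cultures, the 4 smallest adjusted p of each list, the 5 largest changes in CPM each way, and the 5 smallest adjusted p between ploidies if under 0.05. The 40 lists and the members were chosen with earlier results of these data known. Lists share members, so their counts are not independent of each other. For example, *ctp1+* is in the lists of MBF targets and of recombination. *cdc22+* is in those of MBF targets, of ribonucleotide reductase and of purine and pyrimidine synthesis. RefSeq ASM294v3 matched 4855 genes by locus tag, and intron boundaries were identical in 2293 of 2296 genes compared. A further gene and a further motif are not reported here.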

Additional observations from a re-analysis of the deposited data

Results flagged for a closer look

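In 10 of 94 results with 6 cultures, the log2 ratio of MMS to NT in a culture lay far from the other 5 by Dixon's test, where chance alone gives about 1 in 20. Diploid culture 3 was the distant one for 5 genes. Its log2 ratio was 0.14 for *cdc22+* (0.84 to 1.24 in the others), 0.015 for *fbh1+* (-0.45 to -0.35), 0.068 for *hus1+* (-0.42 to -0.25), -0.14 for *rib5+* (0.43 to 0.76) and -0.17 for *uve1+* (-0.52 to -0.43), so that in each of these the change was small or on the other side of 0. Haploid culture 1 was distant for 3 genes, with 2.55 for *ctt1+* (0.90 to 1.36 in the others), 2.27 for *trr1+* (0.82 to 1.25) and -0.59 for *cnp3+* (-0.43 to -0.35), each a stronger change than in the others. *ste6+* had 0.10 in haploid culture 3 (0.30 to 0.41 in the others), and *ste7+* had -0.73 in haploid culture 2 (-0.48 to -0.34).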

How the results depend on the processing

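The 82 genes higher and 70 lower stayed within 1.5-fold of these counts with DESeq2, with other size factors, with robust dispersion and without the filter on low counts. Leaving out 1 culture in turn gave 129 to 210 genes in all, 68 to 97 higher and 61 to 113 lower, and by adjusted p alone 441 to 1029 higher and 305 to 1015 lower. Within haploids it gave 69 to 138 higher and 48 to 120 lower, within diploids 20 to 96 higher and 21 to 116 lower, and for the difference between ploidies 0 to 5. A log2FC above 1 left 35 genes, 21 higher and 14 lower. With no replicate block, 69 genes rose and 52 fell, and by adjusted p alone 370 rose and 231 fell. The same fit per ploidy, added after seeing the data, called 49 lower in haploids and 27 higher and 16 lower in diploids. Of 93 named genes, 72 kept their call and direction without the block and 21 lost the call. Scaling by spike-ins called 30 higher and 106 lower, or 30 and 112 by adjusted p alone, and without haploid culture 1, also added after seeing the data, 50 higher and 68 lower, 74 higher by adjusted p alone and 118 lower by adjusted p alone. Spike-in scaling left 5 MBF targets, 5 peroxide genes and 0 proteasome genes higher, and turned *mrc1+* to -0.10, *rad8+* to -0.0064, *suc22+* to -0.0041 and *thp1+* to -0.021. These 4 genes moved with the median of all genes, which spike-in scaling shifts to -0.26. The cause of the other shifts was not tested. List counts by adjusted p alone moved by more than 1.5 times for 30, 26 and 22 counts without diploid cultures 1, 2 and 3 and for 12, 25 and 26 counts without haploid cultures 1, 2 and 3. With no replicate block 46 counts moved so. The genes lower then went from 13 to 0 for ribosomal proteins, from 14 to 0 for ribosome biogenesis and from 2 to 0 for the checkpoint. They went from 5 to 1 for phosphate genes and from 7 to 3 for flocculins.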
